A study of Mus musculus with 2 samples.

Results

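The genes described here encode 3 beta subunits of the sodium pump (Atp1b1, Atp1b2 and Atp1b3), 3 of its FXYD regulators (Fxyd1, Fxyd5 and Fxyd6) and the sodium-calcium exchanger of heart muscle (Slc8a1). They were chosen by name, and each of the 7 symbols matched exactly 1 of the 55536 genes of the GENCODE M21 mouse annotation. Between them they have 52 of its 141862 annotated transcripts. Their RNA was measured by polyA RNA-seq in hearts of B6NCrl mouse embryos at 12.5 days, from pooled males and females that the labels describe as healthy. Both libraries belong to this single group and were made from 10 ng of RNA by oligo-dT priming and tagmentation. The labels number them as biological replicates 1 and 2, so the data hold no contrast between conditions, and every comparison is between genes, between transcripts, between 2 annotations or between these 2 libraries.

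The sodium pump moves sodium out of the cell and potassium into it at the cost of ATP. A catalytic alpha subunit does the transport, a beta subunit carries the complex to the plasma membrane, and a small FXYD protein tunes its affinity for sodium and its rate. In heart muscle the sodium gradient made by the pump drives the exchanger, which removes after each beat the calcium that entered the cell. Mouse embryos that lack the exchanger have no regular heartbeat.

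The 3 FXYD genes of this set share a run of codons for the residues proline, phenylalanine, any residue, tyrosine and aspartate, which gives the family its name. It is printed here, from the GENCODE M21 transcripts (mm10), because it is the sequence feature that holds the group together. Capitals mark the run, and 15 coding bases stand on each side.
Fxyd1-203: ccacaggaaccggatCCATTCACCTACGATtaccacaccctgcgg
Fxyd5-201: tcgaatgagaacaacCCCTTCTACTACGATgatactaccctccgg
Fxyd6-203: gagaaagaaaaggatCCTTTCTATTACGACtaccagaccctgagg
The run begins at codon 28 of Fxyd1-203, codon 27 of Fxyd6-203 and codon 135 of Fxyd5-201, whose coding sequence of 537 bases is the longest of the 3. Searched in frame on the coding strand, the run was found in 33 of 21591 genes with a coding transcript (0.153%), and all 7 Fxyd genes were among them. The coding sequences as a whole, aligned with the run included, differ widely. Fxyd1-203 and Fxyd5-201 were identical at 69.9% of 269 aligned bases, and Fxyd1-203 and Fxyd6-203 at 61.5% of 265. For Fxyd5-201 and Fxyd6-203 it was 64.6% of 274.

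The libraries held 34248993 and 31394912 expected counts on genes (replicates 1 and 2), and 12468 protein-coding genes had a level of at least 1 TPM, a unit that divides reads by transcript length and scales each library to the same total, in both. All 5 cardiomyocyte markers were detected, with a summed level of 19069 and 19326 TPM. Markers of endothelial, epicardial, mesenchymal, erythroid and macrophage cells were detected too, 5 of 5 in each list, so the tissue was a mixture. In such bulk tissue, fewer cells of a type and less RNA per cell cannot be told apart. The 5 hepatocyte markers summed to 132 TPM (replicate 1) and 27.9 TPM (replicate 2), and all 5 were called lower in replicate 2. Over 20136 genes the libraries differed by more than counting error, with a chi-square of 4.01 per degree of freedom.

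All 7 genes were detected in both libraries, at levels that spanned from Fxyd1 near the top of the heart's transcripts to Atp1b2 near the middle. Fxyd1 was higher than 98.9% of the detected protein-coding genes, Atp1b1 than 97.0%, Atp1b3 than 91.7% and Slc8a1 than 86.6%. Fxyd5, Fxyd6 and Atp1b2 were higher than 61.3%, 57.8% and 56.8%. The order by TPM was Fxyd1, Atp1b1, Atp1b3, Slc8a1, Fxyd5, Fxyd6 and Atp1b2. Neighbours in it were taken to differ where their ranges did not overlap and their means lay further apart than the sum of their SDs. Fxyd6 and Atp1b2 did not meet this rule, and Fxyd5 and Fxyd6 met it narrowly, with means 3.09 TPM apart against summed SDs of 2.79 TPM.

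**Figure D1:**
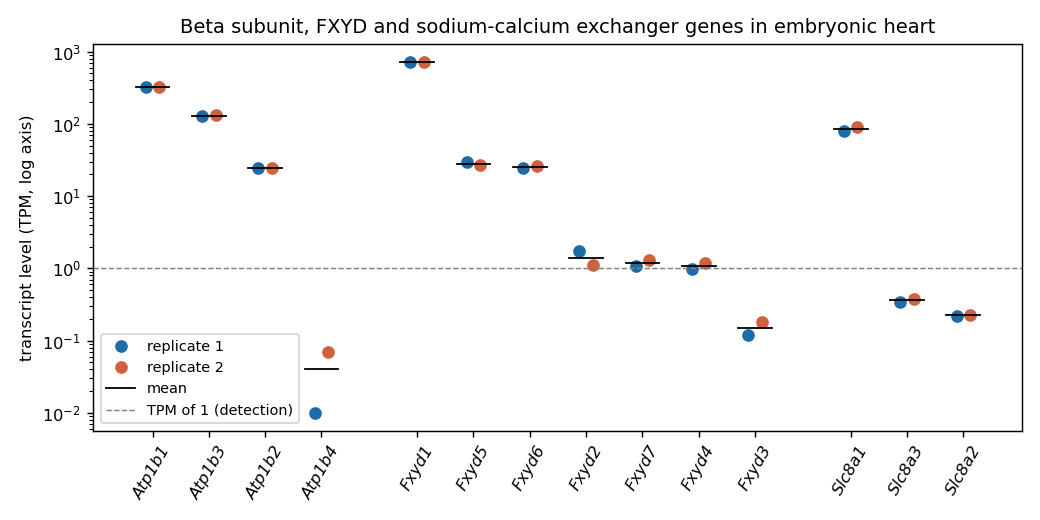
Level in TPM (log axis) of the 7 genes and of the other members of their 3 families, with each library as a point and the mean as a line. In each family 1 gene stands above the rest, Atp1b1 at 324 TPM, Fxyd1 at 726 TPM and Slc8a1 at 84.0 TPM, and most other members outside the set lie near or under the detection level of 1 TPM.

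Atp1b1 encodes the beta subunit that is most widespread among tissues and the main partner of the catalytic subunit in adult heart. It lies at chr1:164437109-164458355 (mm10, minus strand). It reached 325.81 TPM (replicate 1) and 321.36 TPM (replicate 2), a mean of 324 ± 3.15 TPM (SD, n = 2). Atp1b3 (chr9:96332655-96364442, minus strand), a second beta subunit found in many tissues, stood at 128.5 and 131.06 TPM, a mean of 130 ± 1.81 TPM (SD, n = 2). Atp1b2 (chr11:69599736-69605942, minus strand), first described as an adhesion molecule on glia, stood at 24.19 and 24.21 TPM, a mean of 24.2 ± 0.014 TPM (SD, n = 2). The order of the 3 was the same in both libraries, with no overlap.

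Of the summed TPM of the 4 Atp1b genes, Atp1b1 made up 67.8% ± 0.477, Atp1b3 27.2% ± 0.452 and Atp1b2 5.07% ± 0.0165 (SD, n = 2). On the scale of log2(TPM + 0.5), Atp1b1 exceeded Atp1b3 by 1.34 in replicate 1 and by 1.29 in replicate 2. Atp1b3 exceeded Atp1b2 by 2.39 and 2.41. The fourth gene, Atp1b4, which in placental mammals codes for a protein of the muscle cell nucleus and not for a pump subunit, had 1 and 6 counts. The coding sequences of the 3 beta subunits differ widely. Atp1b1-201 and Atp1b3-201 were identical at 59.4% of 793 aligned bases, and Atp1b1-201 and Atp1b2-201 at 61.4% of 830.

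Nearly all Atp1b1 and Atp1b3 RNA was assigned to a single coding transcript. Atp1b1-201 held 97.97% and 98.22% of its gene's TPM, and Atp1b3-201 held 99.0% and 98.46%. Over 11344 detected coding genes with more than 1 transcript, the median share of the leading transcript was 68.1%. Atp1b2 was divided further. Its coding transcript Atp1b2-201 held 82.43% and 74.73%, and its 3 non-coding processed transcripts together held 17.57% and 25.27%. The near-equal Atp1b2 totals in the 2 libraries therefore came with coding levels of 19.94 and 18.09 TPM. The 3' end of Atp1b1 overlaps Nme7 on the other strand, with 575 exonic bases in common. Nme7 had 447 and 452 counts against 19619 and 17540 for Atp1b1, and the sources used here do not say whether strand was used in counting.

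Fxyd1, or phospholemman, is the FXYD protein of heart and skeletal muscle, holds back the pump until protein kinase A or C phosphorylates it, and is also known to bind the exchanger. It was the highest of the set, at 725.37 TPM (replicate 1) and 727.6 TPM (replicate 2), a mean of 726 ± 1.58 TPM (SD, n = 2). It ranked 138 among the 12468 detected protein-coding genes. Fxyd5, or dysadherin, is a regulator of the pump that also weakens cell adhesion. It stood at 29.21 and 27.11 TPM, a mean of 28.2 ± 1.48 TPM (SD, n = 2). Fxyd6, or phosphohippolin, is best known from brain. It stood at 24.15 and 26.0 TPM, a mean of 25.1 ± 1.31 TPM (SD, n = 2).

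Fxyd1 accounted for 92.7% ± 0.0465 of the summed TPM of the 7 FXYD genes (SD, n = 2). Fxyd5 made up 3.59% ± 0.196 and Fxyd6 3.20% ± 0.162. On the log2(TPM + 0.5) scale Fxyd1 exceeded Fxyd5 by 4.61 and 4.72 and Fxyd6 by 4.88 and 4.78. Between Fxyd5 and Fxyd6 the difference was 0.27 in replicate 1 and 0.06 in replicate 2, a mean of 0.16 ± 0.15 (SD, n = 2). The deposited credibility bounds, which surround a posterior mean and whose level is not stated, overlapped in replicate 2, where they ran from 25.6 to 32.4 TPM for Fxyd5 and from 23.7 to 26.9 TPM for Fxyd6. In replicate 1 they did not, with 27.4 to 34.3 TPM for Fxyd5 and 22.1 to 24.95 TPM for Fxyd6. Expected counts, which are not divided by transcript length, put these 2 genes in the other order: 516 and 442 for Fxyd5 against 1008 and 981 for Fxyd6, a log2 ratio of -1.06. The effective length was 716 bases for Fxyd5 and 1692 bases for Fxyd6 in replicate 1.

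Apart from Fxyd4, on chromosome 6, the FXYD genes lie in 2 clusters, and near neighbours within them differed in level. On chromosome 7, Fxyd5 (chr7:31032722-31042481), Fxyd7 (chr7:31042513-31051467) and Fxyd1 (chr7:31051678-31057199) lie head to tail on the minus strand, with 31 bases between Fxyd5 and Fxyd7 and 210 bases between Fxyd7 and Fxyd1. Fxyd7, a regulator known from brain, stood at 1.07 and 1.30 TPM between these 2 neighbours, of which Fxyd1 was the higher. On chromosome 9, Fxyd6 (chr9:45370185-45396159, plus strand) is followed after 3509 bases by Fxyd2, the gamma subunit of the kidney pump, at 1.73 and 1.10 TPM.

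The Fxyd1 level is a sum over 17 transcripts, and the choice of transcripts moved it. Fxyd1-203 held 53.64% and 56.82% of the TPM. The next was Fxyd1-213, a retained-intron transcript of only 255 bases with no coding sequence, at 21.1% and 15.95%. It received 589 and 404 counts, 9.41% and 6.90% of the gene's counts, and its share of TPM was larger because TPM divides by a short length. Coding transcripts alone gave 563.57 and 602.54 TPM, a mean of 583 ± 27.6 TPM (SD, n = 2), which was still the highest level of the set. Of the coding transcripts, 10 share a single coding sequence of 276 bases and together held 76.33% and 80.94%. When these 10 were grouped by their start, 5 that begin within a window from 31054788 to 31054819 held 67.29% and 70.99%, and 5 that begin at least 590 bases upstream held 9.04% and 9.95%. This grouping was made after the values were seen.

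Fxyd5 had no leading transcript. Fxyd5-201 held 27.39% and 29.94% and Fxyd5-203 held 23.52% and 30.49%, so that the highest transcript was not the same in the 2 libraries. By the mean Fxyd5-201 was first, and 3.27% of multi-transcript genes had a lower leading share. In all, 6 transcripts reached 5% in both libraries. Fxyd5-209 held 18.13% in replicate 1 and 7.47% in replicate 2, on 87 and 30 counts. The 6 transcripts with a coding sequence of 534 or 537 bases, grouped after the values were seen, held 82.65% and 82.9% together and had 2 distinct coding sequences.

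Fxyd6 was divided between a pair of transcripts that differ by 3 coding bases at the start of exon 3. These are shown as the coding difference between the 2 forms (chr9:45390027-45390672, mm10, plus strand, the last 21 bases of exon 2 joined to exon 3). Capitals mark the 3 bases.
Fxyd6-201: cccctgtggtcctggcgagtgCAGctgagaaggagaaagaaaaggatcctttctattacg
Fxyd6-203: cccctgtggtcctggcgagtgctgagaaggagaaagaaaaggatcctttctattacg
Fxyd6-203, with the shorter coding sequence, held 54.97% and 64.27%, and Fxyd6-201 held 44.59% and 35.5%. Both forms were present in both libraries, with Fxyd6-203 the higher in each, on 553 and 630 counts for Fxyd6-203 and 449 and 348 for Fxyd6-201. The transcripts also differ in their last exon, of 1177 bases in Fxyd6-203 and 1173 in Fxyd6-201, so other bases than these 3 can have entered the division.

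**Figure D2:**
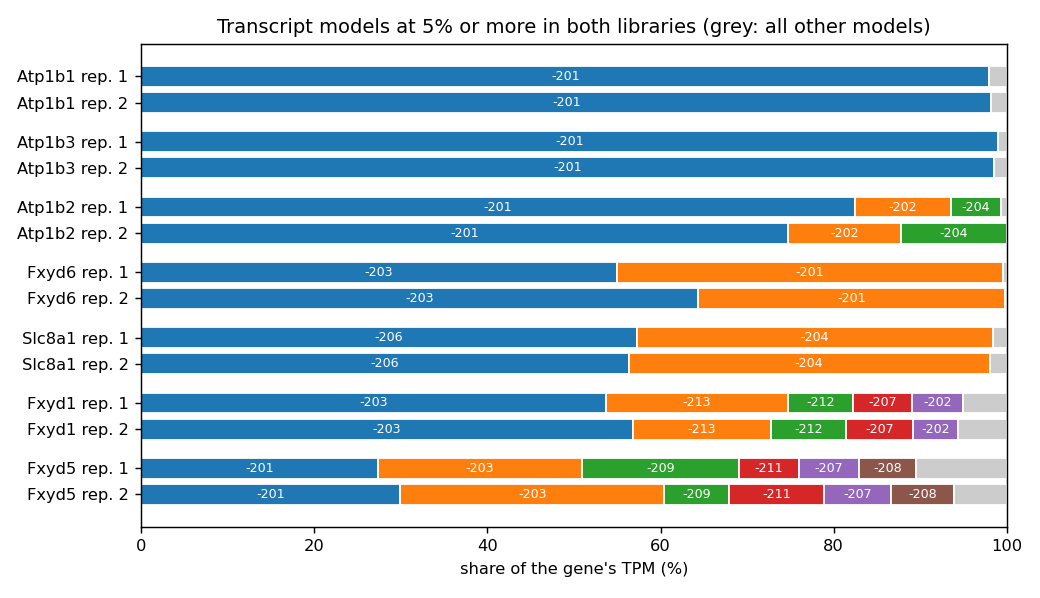
Share of each gene's TPM (%) held by its transcripts in each library, with transcripts at 5% or more in both libraries in colour, labelled by their number, and the rest in grey. Atp1b1 and Atp1b3 have a single transcript above 97%, Fxyd6 and Slc8a1 have 2 each, and Fxyd5 has 6.

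Slc8a1 encodes the exchanger NCX1, the main route by which a cardiomyocyte removes calcium across its plasma membrane. It spans 365 kb (chr17:81373105-81738377, mm10, minus strand), against 31.8 kb for Atp1b3, the next longest gene of the set. It reached 78.64 TPM (replicate 1) and 89.33 TPM (replicate 2), a mean of 84.0 ± 7.56 TPM (SD, n = 2), the widest spread of the set relative to its mean (9.00%). It made up 99.3% ± 0.0204 of the summed TPM of Slc8a1, Slc8a2 and Slc8a3 (SD, n = 2). Slc8a2 and Slc8a3, the exchangers best known from brain and skeletal muscle, were under 1 TPM in both libraries, Slc8a2 at 0.22 and 0.23 TPM and Slc8a3 at 0.34 and 0.38 TPM.

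A pair of transcripts held almost all Slc8a1 TPM. Slc8a1-206 had 57.23% and 56.32%, and Slc8a1-204 had 41.18% and 41.68%. They differ in the short exons that code for part of the large cytoplasmic loop of the exchanger, where splicing is known to differ between tissues. Both runs below go from the last 30 bases of the exon before to the first 30 bases of the exon after (chr17:81437784-81445516, mm10, minus strand, exons joined). Capitals mark the 36 bases, in exons of 21 and 15 bases, that Slc8a1-206 has and Slc8a1-204 lacks.
Slc8a1-206: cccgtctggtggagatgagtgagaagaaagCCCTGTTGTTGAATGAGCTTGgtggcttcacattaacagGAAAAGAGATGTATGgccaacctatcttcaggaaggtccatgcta
Slc8a1-204: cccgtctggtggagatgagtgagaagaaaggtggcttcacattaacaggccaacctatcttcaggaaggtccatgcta
The shared 18-base exon lies between the capitals. The same pair of transcripts also differs at the 3' end, where Slc8a1-204 has a last exon of 15963 bases and Slc8a1-206 one of 445 bases. At the 5' end Slc8a1-206 has a separate first exon of 69 bases, which Slc8a1-204 lacks. The coding sequence is 2820 bases in Slc8a1-206 and 2874 bases in Slc8a1-204, so coding bases other than the 36 differ too. In these 2 models the short exons and both ends go together. The shares of TPM therefore cannot be read as the inclusion of the short exons.

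**Figure D3:**
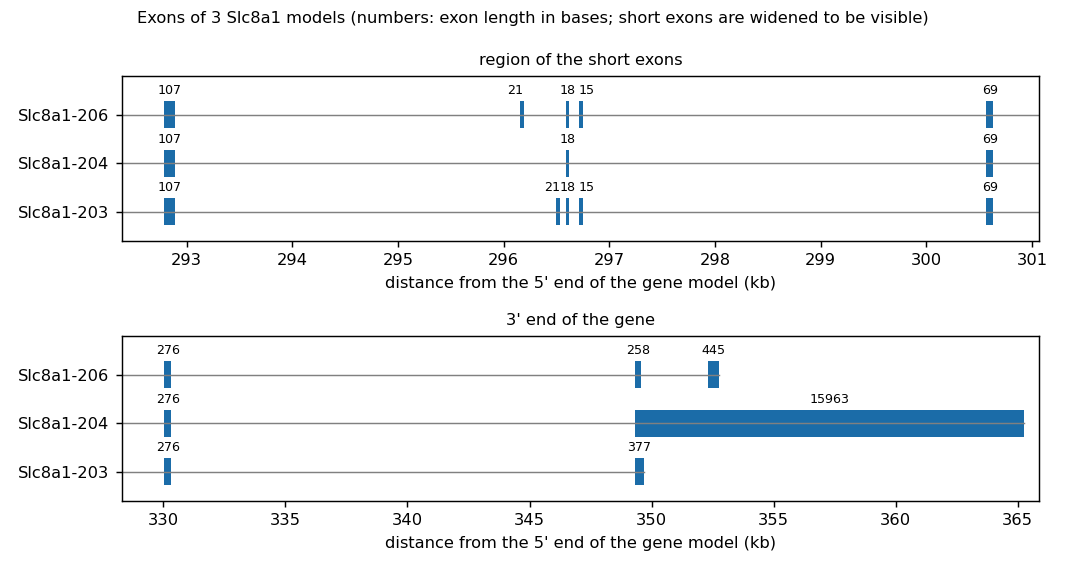
Exons of 3 Slc8a1 transcripts by distance from the 5' end (kb), with the short exons above and the 3' end below; numbers are exon lengths in bases. Slc8a1-204 lacks the exons of 21 and 15 bases and ends in an exon of 15963 bases. The 21-base exons of Slc8a1-206 and Slc8a1-203 lie at different positions.

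Most Slc8a1 counts were assigned to the transcript with the long last exon. Slc8a1-204 took 80.0% and 80.4% of the gene's expected counts, although Slc8a1-206 was the higher by TPM, 45.0 and 50.3 TPM against 32.4 and 37.2 TPM. By expected counts Slc8a1, with a mean of 18652, stood level with Atp1b1, with 18580, whereas by TPM Atp1b1 was 3.85-fold higher. Neither Slc8a1-206 nor Slc8a1-204 is in the older annotation, M4, on which the authors also quantified both libraries. There Slc8a1 kept 27.9% of its counts, 5198 and 5207 in place of 18332 and 18971, and of 13643 genes detected and present in both annotations 0.645% kept a smaller share. Its TPM was nearly the same, 78.18 and 86.64 on M4, a mean of 82.4 ± 5.98 TPM (SD, n = 2), since its effective length there was 2814 bases in place of 9449 in replicate 1.

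The other genes kept between 94.2% (Fxyd1) and 100% (Atp1b1, Atp1b2 and Atp1b3) of their counts on M4. The level of Fxyd1 was lower there, at 557.2 and 579.91 TPM, a mean of 569 ± 16.1 TPM (SD, n = 2). Fxyd1-213, the short retained-intron transcript, is not part of M4, and Fxyd1-203 held 89.46% and 91.23% of Fxyd1 TPM on that annotation. M21 gave 1.28 times the M4 level, and 8.88% of genes had a lower ratio of M4 to M21. The median gene had an M4 level 1.04 times that on M21.

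**Figure D4:**
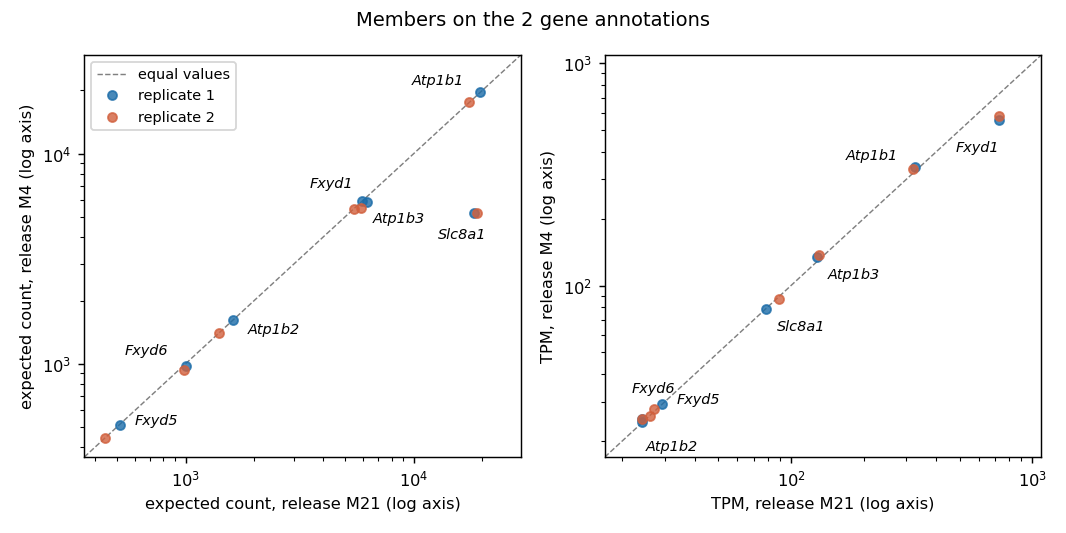
Expected counts (left) and TPM (right) of each gene on release M4 against release M21 (log axes), with a point for each library. Slc8a1 falls far under the line of equal values by counts but lies on it by TPM, and Fxyd1 falls under it by TPM.

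The libraries were compared gene by gene with an exact conditional binomial test on rounded expected counts, scaled by TMM (trimmed mean of M-values), with Benjamini-Hochberg adjustment over the 17970 genes whose counts in both libraries summed to 20 or more. Calls required both an adjusted p under 0.05 and an absolute log2 ratio of 1 or more. The test covers counting error only and speaks of these 2 libraries. None of the 7 genes was called, against 1.57% of all genes tested. When no fold was asked for, 2 passed by adjusted p, against 10.0% of all genes tested, and the count by an unadjusted p under 0.05 was also 2, against 22.5%. These 2 were Slc8a1, higher in replicate 2, and Atp1b1, lower in it. Of all genes tested, 4.28% passed by adjusted p as higher in replicate 2 and 5.73% as lower. Genes with many counts pass more often: of 9410 genes whose counts summed to 900 or more, a limit set just under the lowest gene of the set after its values were seen, 12.8% passed.

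Slc8a1 was higher in replicate 2, with a log2 ratio of 0.16 (95% exact interval 0.13 to 0.19, adjusted p = 3.7e-25 by the exact binomial test). Its absolute log2 ratio was larger than that of 65.2% of all genes tested and of 91.2% of the genes with at least 900 summed counts. The ratio on M4 was 0.12 (adjusted p = 0.00083, exact binomial test). Atp1b1 was lower in replicate 2 by a smaller amount, a log2 ratio of -0.05 (95% exact interval -0.08 to -0.02, adjusted p = 0.020, exact binomial test), and did not pass when libraries were scaled by their total count (adjusted p = 0.11, exact binomial test). The log2 ratios of the other 5 ran from -0.11 (Fxyd5) to 0.07 (Fxyd6), with intervals that all included 0. The median absolute log2 ratio was 0.07 over the 7 genes and 0.10 over all genes tested, but 0.06 over the 9410 genes with 900 or more summed counts. Markers of several cell types differed between the same libraries, those of heart muscle in both directions. The 5 hepatocyte markers and the glial marker Fabp7 were called lower in replicate 2, against 1.57% of all genes tested called in either direction. Without a fold threshold 4 of 5 erythroid markers had an adjusted p under 0.05, against 10.0% of all genes tested. By that measure 3 of 5 cardiomyocyte, 2 of 5 mesenchyme and 1 of 5 endothelial markers passed, and 0 in the epicardial, neuron and macrophage lists. The 5 erythroid markers had summed levels of 29342 and 26049 TPM and a median log2 ratio of -0.22. For the cardiomyocyte markers the median was 0.005, and the 3 that passed were Myh7 at 0.04, Actc1 at -0.05 and Ryr2 at 0.12. The part of these cell types in the ratios of the 7 genes was not tested.

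**Figure D5:**
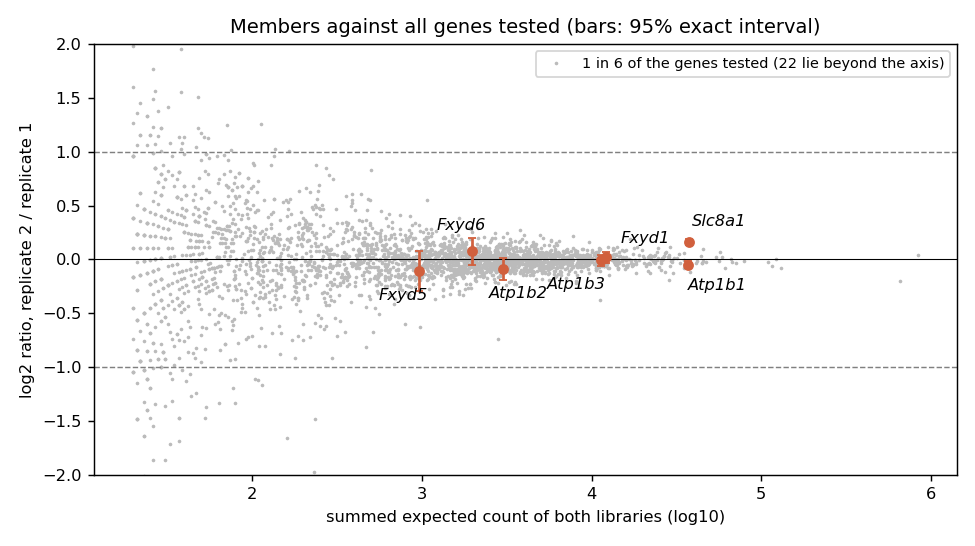
Log2 ratio of replicate 2 to replicate 1 against the log10 of the summed expected count, for the 7 genes (orange, bars are 95% exact intervals) and 1 in 6 of the genes tested (grey). Dashed lines mark the fold asked for in a call; all 7 genes lie between them, with Slc8a1 at 0.16 and Fxyd5 at -0.11 the furthest from 0.

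Of 33 further genes of the pump and of sodium and calcium transport, 19 were detected and 0 of the 27 tested were called between libraries, against 1.57% of all genes tested. Without a fold threshold 4 passed, against 10.0% of all genes tested: Prkaca, Cav1, Atp2b4 and Slc12a2. Among the other beta and FXYD subunits 2 of 5 were detected, Fxyd2 and Fxyd7, and the highest of the 5 was Fxyd2 at 1.42 TPM. These detections rest on few counts, 13 and 7 for Fxyd2 and 15 and 16 for Fxyd7. Fxyd4, with 10 and 12 counts, narrowly missed the limit at 0.97 and 1.18 TPM. Among the other exchangers 4 of 7 were detected. These were Slc8b1, the exchanger of the mitochondrial inner membrane, at 3.33 and 3.48 TPM, and the potassium-dependent exchangers Slc24a2 at 5.59 and 5.04, Slc24a3 at 2.29 and 1.72 and Slc24a4 at 3.16 and 3.46 TPM. All were far under Slc8a1.

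The calcium pumps of the plasma membrane, the ATP-driven route for the ion that the exchanger removes, had 2 of 4 members detected. Atp2b1 stood at 79.08 and 78.47 TPM, against 78.64 and 89.33 TPM for Slc8a1, and Atp2b4 at 19.19 and 23.01 TPM. All 3 sodium-coupled carriers described here were detected, from Slc4a4, a sodium bicarbonate cotransporter, at 4.35 and 4.38 TPM to its relative Slc4a7 at 14.3 and 14.51 TPM. Slc12a2, the sodium-potassium-chloride cotransporter, stood at 4.71 and 5.72 TPM.

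Of the anchors, kinases and partners of the pump 8 of 11 were detected. Prkaca, the catalytic subunit of protein kinase A and so a kinase of the Fxyd1 protein, was the highest at 169.34 and 182.53 TPM, and Prkca, protein kinase C alpha, stood at 14.73 and 13.21 TPM. Ppp1r1a, an inhibitor of the phosphatase that acts on phospholemman, stood at 61.39 and 64.61 TPM. Ank2, which anchors pump and exchanger in the cardiomyocyte membrane, stood at 33.25 and 35.56 TPM. Ank3, in the same list, was higher at 48.46 and 51.0 TPM. Caveolin genes Cav1 and Cav3 stood at 58.68 and 52.35 and at 48.0 and 49.68 TPM. Of the Nkain genes, whose proteins bind a beta subunit of the pump, Nkain4 was detected, at 29.05 and 28.1 TPM, and the other 3 were not. None of the 3 genes of related proton pumps, Atp4a, Atp4b (itself a beta subunit) and Atp12a, was detected, and Atp12a had no count in either library, where 3 counts are the limit that a count of 0 allows.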

How the data were processed

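PolyA RNA-seq of 2 libraries of mouse embryonic heart was used, 1 group. The authors deposited gene and transcript tables for each library on mm10, with annotations M21 (used here) and M4, per the text deposited beside them; aligner, counter and strand setting: not given in the sources used here. Per the file headers, the deposited values are expected counts, TPM (scaled by length and to a fixed total over all rows, spike-ins included), and isoform percentages (the percent of a gene's TPM). Reads that fit several transcripts are shared out, so transcript shares are estimates.

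Genes were matched by symbol in GENCODE M21, all 7 uniquely; catalytic subunit genes and 1 gene of the fixed lists are not reported here. Members, lists and tests were chosen with earlier results of these data known. Levels are means ± SD over 2 libraries. The SDs measure only the spread between these libraries, and the p-values cover counting error only. Expected counts were rounded and scaled with TMM (edgeR 4.0.16, R 4.3.3), then compared by a two-sided exact binomial test (scipy 1.17.1) conditional on the summed count. The test was tried on simulated data that held counting error alone. These libraries differ by more than that, so the trial does not show how the test behaves on them. Two-sided p-values summed the outcomes no more likely than the one seen; doubling the smaller tail was tried after that result was seen, and both counts are given in the closing section. Named genes are all members, their transcripts at 5% or more in both libraries, and the detected genes of the fixed lists of pump and transport genes. Genes of those lists that were not detected are in part only counted, and cell type markers are mostly given by list. Coding sequences were aligned globally with Biopython 1.88 (match 1, mismatch -1, gap opening -4, gap extension -0.5). Other scalings (DESeq2 1.42.0 size factors, total, spike-ins), filters, pseudocounts, posterior means and M4 were alternatives. Intervals cover counting error only.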

Additional observations from a re-analysis of the deposited data

How the results depend on the processing

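The count of genes called between libraries was 0 under every scaling, with no minimum count and on M4. Without the fold threshold it was 2, and 2 again when the two-sided p was formed by doubling the smaller tail, a form tried after the first result was seen; over all genes it gave 260 calls in place of 282, and 1744 in place of 1799 without the fold. All 7 genes were detected under each alternative. Levels moved by at most 1.28 times. Over nuclear protein-coding genes alone they were 405 (Atp1b1), 30.3 (Atp1b2), 162 (Atp1b3), 909 (Fxyd1), 35.2 (Fxyd5), 31.4 (Fxyd6) and 105 TPM (Slc8a1). On M4 Atp1b1 was 338, Atp1b2 25.2, Atp1b3 136 and Fxyd1 569 TPM. By posterior means Atp1b1 was 315, Atp1b2 23.99, Atp1b3 126, Fxyd1 707 and Fxyd5 29.9 TPM. With coding transcripts alone, an alternative chosen after seeing the data, Atp1b1 was 318, Atp1b2 19.0 and Fxyd1 583 TPM. By counts not divided by length, the log2 ratio Fxyd5/Fxyd6 reversed to -1.06, and Atp1b1/Atp1b3 was 1.70, Atp1b1/Atp1b2 3.62, Atp1b3/Atp1b2 1.92, Fxyd1/Fxyd5 3.66 and Fxyd1/Fxyd6 2.61; the 2 scales differ by transcript length. Atp1b1/Atp1b2 was 3.74 and 3.69 with pseudocounts of 0.01 and 1 and 3.69 by posterior means, and Atp1b3/Atp1b2 was 2.42, 2.38 and 2.37. On M4 Fxyd1/Fxyd5 was 4.29 and Fxyd1/Fxyd6 4.47, and by posterior means Fxyd1/Fxyd5 was 4.54. The share of Fxyd1-203 was 90.3% on M4, which lacks 14 of the 17 M21 models. By posterior means the shares of Atp1b1-201, Fxyd5-201 and Slc8a1-206 were 97.8%, 22.3% and 55.5%. The cause of the other moves was not tested. Leaving out either library kept the direction of all 6 ratios; Fxyd5/Fxyd6 ranged from 0.06 to 0.27. No value could be given on M4 for the shares of Slc8a1-206 and Fxyd6-203, which that annotation lacks. No paired analysis was possible because the study has a single group.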
